A study of Caenorhabditis elegans with 21 samples.

Results

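The data described here are whole-worm RNA levels in Caenorhabditis elegans mutant in both egl-9 and vhl-1, genotype egl-9(sa307);vhl-1(ok161), set against the wild-type strain N2. The 3 libraries titled as this double mutant and the 3 titled as N2 control were taken, which are 6 of the 21 libraries of the series, and all 22037 measured genes were used. The egl-9(sa307) and vhl-1(ok161) single mutants, with 3 libraries each, served to show where the double mutant differed from its parents. The series is a genetic study of the hypoxia response pathway that reads whole transcriptomes as phenotypes. All worms were synchronized young adults that did not yet hold visible eggs, grown on the Escherichia coli strain OP50, and every library was made with SmartSeq2 from a small pool of picked animals. Each gene was represented by 1 allele, and no drug or hypoxia treatment is recorded for any group. The labels do not say if libraries of 1 genotype were grown separately. The p-values below therefore measure only the spread between libraries of the same genotype, pooled over all 21 libraries.

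HIF-1 is the transcription factor of the hypoxia response. In well-oxygenated worms the prolyl hydroxylase EGL-9 modifies HIF-1, and VHL-1, the worm counterpart of the von Hippel-Lindau tumour suppressor, brings the hydroxylated protein to a ubiquitin ligase that marks it for destruction. Loss of either protein lets HIF-1 accumulate, and EGL-9 also restrains HIF-1 activity through a route that does not need VHL-1. HIF-1 is known for hydrogen sulfide and cyanide handling, for the control of sugar metabolism and iron storage, and for feedback through egl-9 and rhy-1, which are themselves its targets.

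The double-mutant libraries held 7336021, 10078623 and 9335605 estimated counts, and the N2 libraries held 9608866, 8071482 and 8364076. A principal component analysis of the 21 libraries put the double mutant apart from every other genotype on its second component, which carried 17.7% of the variance, with scores of 59.1, 44.4 and 48.6 against at most 27.4 elsewhere. Double-mutant replicate 2 stood apart from its 2 fellows in cuticle and molting genes, and N2 replicate 1 stood apart from the other N2 libraries in heat shock genes, and both cases are described with the genes concerned. No transcript below 300 bases had a count in any library, against 94.6% of those of 500 bases or more, so very short genes could not be read. Levels are in CPM, counts scaled to library size, and changes are log2 fold changes with their standard error (SE). Genes with an adjusted p below 0.05 (Benjamini-Hochberg, over 13043 tested genes) in edgeR's quasi-likelihood test are termed called. In whole worms, fewer cells of a type and less RNA per cell cannot be told apart.

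The mutated genes were read first as a check of the labels. The vhl-1 transcript had 0 counts in all 3 double-mutant libraries and a sum of 45 counts in the N2 libraries, which makes it at least 15.1-fold lower in the double mutant against a floor of 3 counts over the group. The egl-9 transcript was not lost: it had 102, 123 and 103 CPM in the double mutant, against 20.7, 19.1 and 22.2 CPM in N2 (log2 fold change 2.41 ± 0.10, SE). All double-mutant libraries lay above all N2 libraries, so the egl-9 transcript level does not check that allele. The hif-1 transcript itself had 89.2, 94.9 and 102 CPM in the double mutant, against 131, 105 and 109 CPM in N2. The groups did not overlap, but the change of -0.27 ± 0.11 was not called (adjusted p = 0.0619 in edgeR's quasi-likelihood test). It was called with DESeq2, with no count filter, at a minimum count of 50 and without N2 replicate 2, at -0.28 to -0.33. Of the other genes of the pathway, cysl-1, the cysteine synthase-like inhibitor of EGL-9, rose by 2.73 ± 0.13, while the HIF-1 partner aha-1 (0.33 ± 0.16) and the ubiquitin ligase parts rbx-1 (-0.24 ± 0.13), cul-2 (0.07 ± 0.08) and elb-1 (0.04 ± 0.19) were not called.

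The known HIF-1 targets rose strongly. All 12 rose in the double mutant over N2, with a median log2 fold change of 4.58, where 16.5% of all tested genes rose and the median over all tested genes was 0.02. Rises ranged from 2.41 for egl-9 to 7.87 for sqrd-1. The sulfide:quinone oxidoreductase gene sqrd-1, which starts the breakdown of hydrogen sulfide, had 1320, 1440 and 1360 CPM in the double mutant, against 5.68, 7.3 and 4.58 CPM in N2 (7.87 ± 0.21). The methyltransferase gene rips-1 had 2440, 2560 and 2310 CPM in the double mutant, against 28.9, 22.7 and 21.0 CPM in N2 (6.65 ± 0.14). In both genes the lowest double-mutant library was far above the highest N2 library.

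The nuclear hormone receptor gene nhr-57, much used as a HIF-1 reporter, had 394, 437 and 403 CPM in the double mutant, against 7.96, 6.83 and 5.31 CPM in N2 (5.93 ± 0.14). The cyanoalanine synthase gene cysl-2 had 749, 698 and 757 CPM in the double mutant, against 15.8, 15.8 and 19.7 CPM in N2 (5.43 ± 0.13). For rhy-1, a membrane acyltransferase-like inhibitor of HIF-1, the values were 480, 482 and 526 CPM in the double mutant and 40.8, 35.1 and 35.8 CPM in N2 (3.73 ± 0.09). In all 12 targets every double-mutant library lay above every N2 library, and over all tested genes the libraries of these 2 genotypes did not overlap in 46.7%. The rest rose by 6.56 ± 0.55 (the flavin monooxygenase fmo-2), 5.91 ± 0.28 (the acyltransferase oac-54), 3.36 ± 0.18 (the cysteine dioxygenase cdo-1), 2.98 ± 0.17 (the cytochrome P450 cyp-36A1), 2.86 ± 0.21 (the collagen prolyl hydroxylase phy-2) and 2.68 for F22B5.4.

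Set against the single mutants, the 12 targets separated the 2 parents. Over egl-9, none was called and their median difference was 0.16, with a range of -0.52 to 0.99, where 8.47% of all tested genes were called. Over vhl-1, 11 of the 12 were higher in the double mutant, with a median of 1.77, where 7.17% of all tested genes were higher. The exception was fmo-2, at 0.66 ± 0.33. As an example, nhr-57 averaged 411 CPM in the double mutant, 427 CPM in egl-9, 47.4 CPM in vhl-1 and 6.7 CPM in N2.

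**Figure D1:**
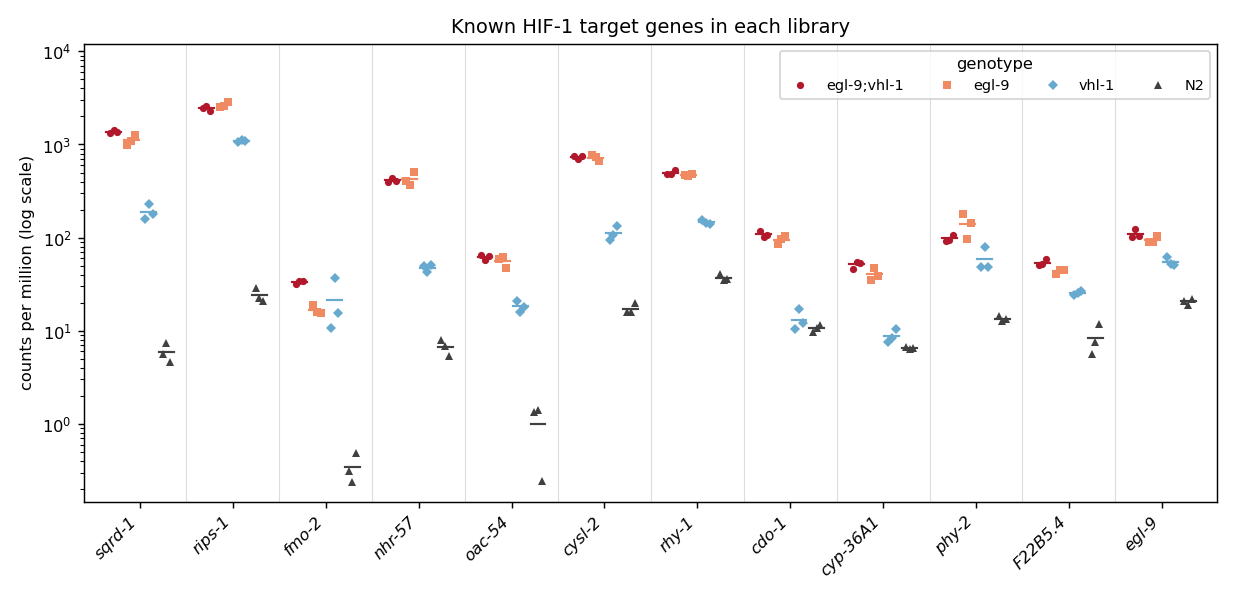
CPM of the 12 known HIF-1 targets on a log scale, 1 point per library and a bar at the mean of the 3 libraries, for egl-9;vhl-1, egl-9, vhl-1 and N2. The double mutant lies near the egl-9 mutant for most genes, the vhl-1 mutant lies lower for most, and the N2 mean is lowest for all 12. For cdo-1 the libraries of vhl-1 and N2 overlap.

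Over N2, 4511 genes were called, 34.6% of those tested, of which 2147 (16.5%) rose and 2364 (18.1%) fell. Each list count over N2 given below is to be read beside these shares of 16.5% and 18.1%. At least a 2-fold change was seen in 754 that rose (5.78%) and 1178 that fell (9.03%). Among the named genes with the largest rises were 2 without a count in N2. The C-type lectin gene clec-60 had 11.1, 8.42 and 12 CPM in the double mutant and 0 counts in all N2 libraries, at least 92.0-fold higher. The uncharacterized gene T05B4.13 had 22.8, 23.1 and 21.2 CPM in the double mutant and 0 counts in N2, at least 197-fold higher. The lipocalin-related gene lpr-6 had 108, 123 and 110 CPM in the double mutant, against 0.517, 0.235 and 0.241 CPM in N2 (8.33 ± 0.27). In each of these genes the libraries of the 2 groups were far apart.

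Further rises were those of nspe-4 (7.41 ± 0.23), a nematode-specific peptide gene, of the glutathione S-transferase gst-19 (6.96 ± 0.56), of far-3 (6.60 ± 0.31), which encodes a fatty acid and retinol binding protein, and of srlf-34 (6.48 ± 0.52). The collagen col-78 had 371 counts in the double mutant and 2 in N2, a ratio of 185 with a 95% counting interval of 50.8 to 1530. By the length-scaled measure TPM, the largest gains in level were those of sip-1, a small heat shock protein of the germline and embryo (10600 TPM in the double mutant and 5460 TPM in N2), the lysozyme lys-4 (5430 TPM in the double mutant and 774 TPM in N2) and far-3 (3380 TPM in the double mutant and 35.1 TPM in N2). C17F4.7, with 9950 TPM in the double mutant and 4480 TPM in N2, belongs with them (1.17 ± 0.40), but its call was lost in 5 alternatives. These were the fits without double-mutant replicate 1 or 2, without N2 replicate 2 or 3, and without double-mutant replicate 2 and N2 replicate 1 together, with adjusted p of 0.0522 to 0.110 in edgeR's quasi-likelihood test.

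Among genes with at least 10 CPM, the deepest loss was that of nkat-3, a kynurenine aminotransferase gene on the X chromosome (WBcel235, chrX:15441731-15443630, plus strand). It had 1 count over the double-mutant libraries and 721 counts over the N2 libraries, a ratio of 724 with a 95% counting interval of 129 to 28600. Its mean was 22.4 CPM in egl-9 and 0.0365 CPM in vhl-1, so both genotypes that carry vhl-1(ok161) were at or near 0. The vhl-1 gene lies on the same chromosome (chrX:11307356-11308518).

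All 5 tested pud genes, named as proteins raised in daf-2 insulin receptor mutants, fell over N2, with a median of -4.88. For pud-3 the values were 0.412, 0.1 and 0.752 CPM in the double mutant, against 185, 187 and 186 CPM in N2 (-8.76 ± 0.63), and pud-4 fell by 7.44 ± 0.56. For pud-1.2 they were 24.3, 32.1 and 34.1 CPM in the double mutant, against 881, 818 and 969 CPM in N2 (-4.88 ± 0.55). The symbol pud-2.2 belongs to 2 gene identifiers with equal values (-4.81 ± 0.57 each), so reads of these copies could not be separated. Over egl-9 no pud gene was called, and over vhl-1 pud-1.2 and both pud-2.2 identifiers were lower. Other named genes with large falls over N2 were the short-chain dehydrogenase dhs-26 (-6.38 ± 0.60), dach-1 (-6.03 ± 0.41), the ferroportin homologue fpn-1.2 (-5.85 ± 0.43) and the cytochrome P450 cyp-35A3 (-4.97 ± 0.31).

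Genes of hydrogen sulfide detoxification changed in both directions. Among 14 tested sulfide detoxification genes, 7 rose and 5 fell over N2, with a median of 1.11. The rhodanese-type sulfurtransferase mpst-3 had 698, 663 and 669 CPM in the double mutant, against 25.4, 26.6 and 29.3 CPM in N2 (4.64 ± 0.12). The persulfide dioxygenase ethe-1 had 106, 118 and 105 CPM in the double mutant, against 12.5, 13.4 and 12.4 CPM in N2 (3.10 ± 0.11). Both genes had groups without overlap, and cysl-3 rose as well (1.75 ± 0.14). Members that fell were mpst-4 (-1.96 ± 0.44), the 2 identifiers that share the symbol mpst-6 (-0.88 ± 0.24), mpst-1 (-0.31 ± 0.12) and the sulfite oxidase suox-1 (-0.49 ± 0.16). The mpst-6 identifiers had equal values, so they are 1 measurement counted as 2 genes. This list shares sqrd-1 and cysl-2 with the known HIF-1 targets, and cysl-1 with the pathway genes above. The count of falls was 3 without N2 replicate 2, 2 without N2 replicate 3, and 3 without both double-mutant replicate 2 and N2 replicate 1.

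Of 18 genes of the methionine cycle and its side branches, 5 rose and 7 fell over N2. The S-adenosylhomocysteine hydrolase ahcy-1, which clears the by-product of methylation reactions, had 1030, 1030 and 1100 CPM in the double mutant, against 1890, 2100 and 2110 CPM in N2 (-0.95 ± 0.10), with no overlap. The cystathionine gamma-lyase gene cth-1 fell by 2.54 ± 0.28, whereas its homologue cth-2 was not called (-0.12 ± 0.15). The cystathionine beta-synthase cbs-1 rose by 0.78 ± 0.17, and the S-adenosylmethionine synthetase sams-1 fell by 0.43 ± 0.13. The count of falls was 4 without double-mutant replicate 1, without N2 replicate 2 or without N2 replicate 3.

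Genes of both routes of propionate breakdown changed, in opposite directions. Propionate is cleared by a route that needs vitamin B12 and, when the vitamin is short, by a shunt that works like beta-oxidation. All 5 genes of the vitamin B12-dependent route rose over N2 (median 0.81) and all 5 genes of the shunt fell (median -1.26), and each of these counts was the same in every alternative run. These gene lists were assembled after the values of some members had been seen, so their counts are a description. The propionyl-CoA carboxylase subunit pccb-1 had 828, 919 and 851 CPM in the double mutant, against 321, 298 and 320 CPM in N2 (1.47 ± 0.09), and its partner pcca-1 rose by 1.40 ± 0.10. Methylmalonyl-CoA mutase mmcm-1 (0.81 ± 0.07), the epimerase mce-1 (0.78 ± 0.11) and mmaa-1 (0.48 ± 0.09) rose less.

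On the shunt, hach-1, a hydroxyacyl-CoA hydrolase, had 50.9, 45.9 and 42.7 CPM in the double mutant, against 217, 240 and 241 CPM in N2 (-2.33 ± 0.10). The acyl-CoA dehydrogenase acdh-1, the first enzyme of the shunt and a widely used dietary vitamin B12 reporter, had 555, 543 and 551 CPM in the double mutant, against 1710, 1430 and 1560 CPM in N2 (-1.51 ± 0.18). No library of the 2 groups overlapped for either gene. The enoyl-CoA hydratase ech-6 (-1.26 ± 0.11), hphd-1 (-0.87 ± 0.13) and alh-8 (-0.50 ± 0.07) also fell. Over egl-9 none of the 10 genes was called, and their differences ran from -0.14 to 0.28. Over vhl-1 the 5 genes of the B12-dependent route were higher and 4 of the 5 shunt genes were lower, the exception being hphd-1 (-0.19).

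Genes of branched-chain fatty acid synthesis gave a different pattern, in which 3 of 4 differed between the double mutant and both single mutants. This list, too, was assembled after values of some members had been seen, so its count is a description. Of all tested genes, 8.47% were called over egl-9 and 17.2% over vhl-1. The elongase elo-5 had 2100, 2140 and 2080 CPM in the double mutant, and averaged 1050 CPM in egl-9, 1020 CPM in vhl-1 and 1100 CPM in N2. Its differences were 1.01 over egl-9, 1.05 over vhl-1 and 0.94 over N2, all called. The acyl-CoA synthetase acs-1 had 560, 558 and 512 CPM in the double mutant, against means of 247 CPM in egl-9 and 254 CPM in vhl-1 (both called, 1.14 over egl-9), while N2 libraries had 539, 372 and 435 CPM (0.28 ± 0.15, not called). The elongase elo-6 was higher in the double mutant than in egl-9 (0.75) and vhl-1 (0.55) but lower than in N2 (-0.40 ± 0.10), and the reductase let-767 was called in none of these comparisons. Without N2 replicate 1, acs-1 was called over N2 as well (0.43).

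**Figure D2:**
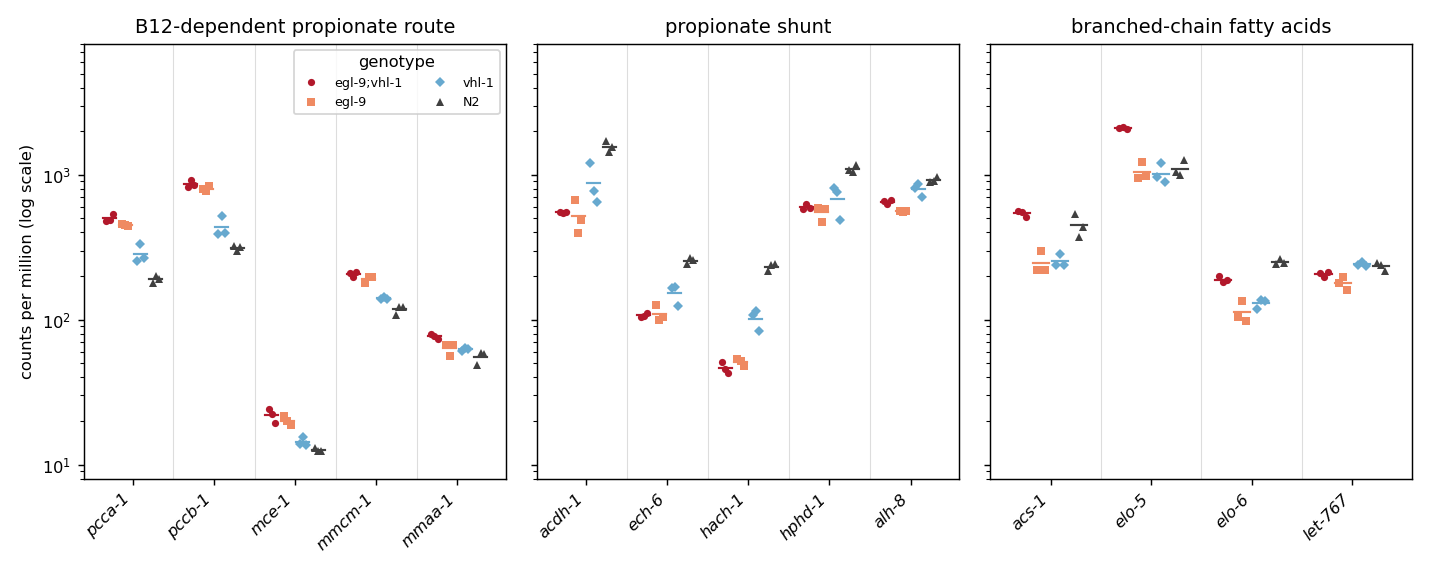
CPM on a log scale for the vitamin B12-dependent propionate genes, the propionate shunt genes and the branched-chain fatty acid genes, 1 point per library and a bar at the mean, for egl-9;vhl-1, egl-9, vhl-1 and N2. The double mutant is above N2 for all 5 genes on the left and below N2 for all 5 in the middle, and its elo-5 level is about 2000 CPM where all other genotypes lie near 1000 CPM.

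RNA of both ferritin genes rose and iron transport genes moved both ways. Of 11 tested genes of iron and metal transport, 4 rose and 4 fell over N2. The ferritin gene ftn-1, which stores iron, had 175, 194 and 227 CPM in the double mutant, against 3.93, 1.18 and 2.9 CPM in N2 (6.19 ± 0.27). The second ferritin, ftn-2, had 1230, 1320 and 1280 CPM in the double mutant, against 589, 455 and 493 CPM in N2 (1.32 ± 0.11). Neither ferritin had overlapping groups, and the metal transporter smf-1 (0.93 ± 0.17) and the zinc transporter ttm-1 (0.37 ± 0.13) rose too. The ttm-1 call was lost without double-mutant replicate 2 or 3, without N2 replicate 2, and without double-mutant replicate 2 and N2 replicate 1 together. The importer smf-3 had 0.138, 0.2 and 0.107 CPM in the double mutant, against 1.96, 1.88 and 2.05 CPM in N2 (-3.59 ± 0.69), and the ferroportin homologue fpn-1.1 (-1.67 ± 0.20) and the aconitase aco-1 (-0.37 ± 0.09) fell as well.

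These iron genes set the vhl-1 single mutant apart from the double mutant. ftn-1 averaged 199 CPM in the double mutant, 266 CPM in egl-9, 0.336 CPM in vhl-1 and 2.67 CPM in N2, and its difference over vhl-1 was 9.15 ± 0.35. In the case of smf-3 the mean was 40.4 CPM in vhl-1 and 0 counts were found in egl-9, and the double mutant was lower than vhl-1 by 7.94 ± 0.50 on the log2 scale. fpn-1.2 averaged 0.287 CPM in the double mutant, 1.12 CPM in egl-9, 20.2 CPM in vhl-1 and 18 CPM in N2.

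Most genes of glycolysis rose. Among 19 tested genes of glycolysis, 13 rose and 3 fell over N2, with a median of 0.50, where 16.5% of all tested genes rose and 18.1% fell. The aldolase aldo-1 had 441, 451 and 466 CPM in the double mutant, against 170, 172 and 178 CPM in N2 (1.39 ± 0.08). Lactate dehydrogenase ldh-1 had 149, 135 and 145 CPM in the double mutant, against 64.9, 72.5 and 71.6 CPM in N2 (1.04 ± 0.07). The groups did not overlap in either gene, and the glyceraldehyde-3-phosphate dehydrogenase gpd-3 (1.17 ± 0.11), the isomerase gpi-1 (0.76 ± 0.08) and phosphofructokinase pfk-1.1 (0.50 ± 0.06) rose with them. The pyruvate kinases pyk-1 (-0.19 ± 0.05) and pyk-2 (-0.41 ± 0.11) and the second phosphofructokinase gene pfk-1.2 (-0.86 ± 0.31) fell, and only 1 of these falls was called without double-mutant replicate 1. The largest rise among the listed genes of carbohydrate metabolism was that of pck-1, the phosphoenolpyruvate carboxykinase of gluconeogenesis, with 1310, 1260 and 1370 CPM in the double mutant, against 77.6, 84.6 and 75.3 CPM in N2 (4.05 ± 0.08). In the list of gluconeogenesis, trehalose and glycogen genes, 5 of 15 rose and 1 fell, the isocitrate lyase icl-1 (-1.34 ± 0.34).

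Mitochondrial energy genes moved little and in both directions. Of 26 TCA cycle genes, 5 rose and 10 fell over N2 (median -0.15), where 16.5% of all tested genes rose and 18.1% fell. The succinate dehydrogenase subunits mev-1 (0.74 ± 0.07) and sdha-1 (0.72 ± 0.08) and fumarase fum-1 (0.55 ± 0.07) rose, while the pyruvate dehydrogenase subunit pdhb-1 (-0.67 ± 0.08) and malate dehydrogenase mdh-2 (-0.52 ± 0.08) fell. The count of falls was 6 without double-mutant replicate 1 and 6 without N2 replicate 3. Of 32 respiratory chain and ATP synthase genes, 3 rose and 7 fell, none by more than 0.36 in size. The falls numbered 2 without double-mutant replicate 1, 4 without double-mutant replicate 2, 4 without N2 replicate 2, 3 without N2 replicate 3, and 3 without double-mutant replicate 2 and N2 replicate 1 together, a pair of removals that left 0 rises. The rises numbered 1 without double-mutant replicate 2 and 1 without N2 replicate 2.

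Ribosomal protein genes were lower. Of 66 tested genes of the cytosolic ribosome, 56 fell and none rose over N2, with a median of -0.41, and between 42 and 58 fell in every alternative. For the small-subunit gene rps-20 the values were 461, 464 and 481 CPM in the double mutant, against 649, 655 and 658 CPM in N2 (-0.48 ± 0.08), and those of rps-9 were 476, 484 and 500 CPM in the double mutant, against 631, 696 and 655 CPM in N2 (-0.44 ± 0.07). Double-mutant libraries lay below N2 libraries in both. The summed level of the list ran from 37100 to 41500 CPM in the double mutant and from 46600 to 51400 CPM in N2. Of 67 mitochondrial ribosomal protein genes 20 fell and none rose, each by at most 0.74 in size. Of 31 proteasome genes 14 fell and none rose, each by at most 0.38 in size. The mitochondrial count was 12 without double-mutant replicate 2, 10 without N2 replicate 2, 11 without N2 replicate 3, and 12 without double-mutant replicate 2 and N2 replicate 1 together. The proteasome count was 9 without double-mutant replicate 1, 7 without double-mutant replicate 2, 6 without N2 replicate 2 and 2 without double-mutant replicate 2 and N2 replicate 1 together.

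**Figure D3:**
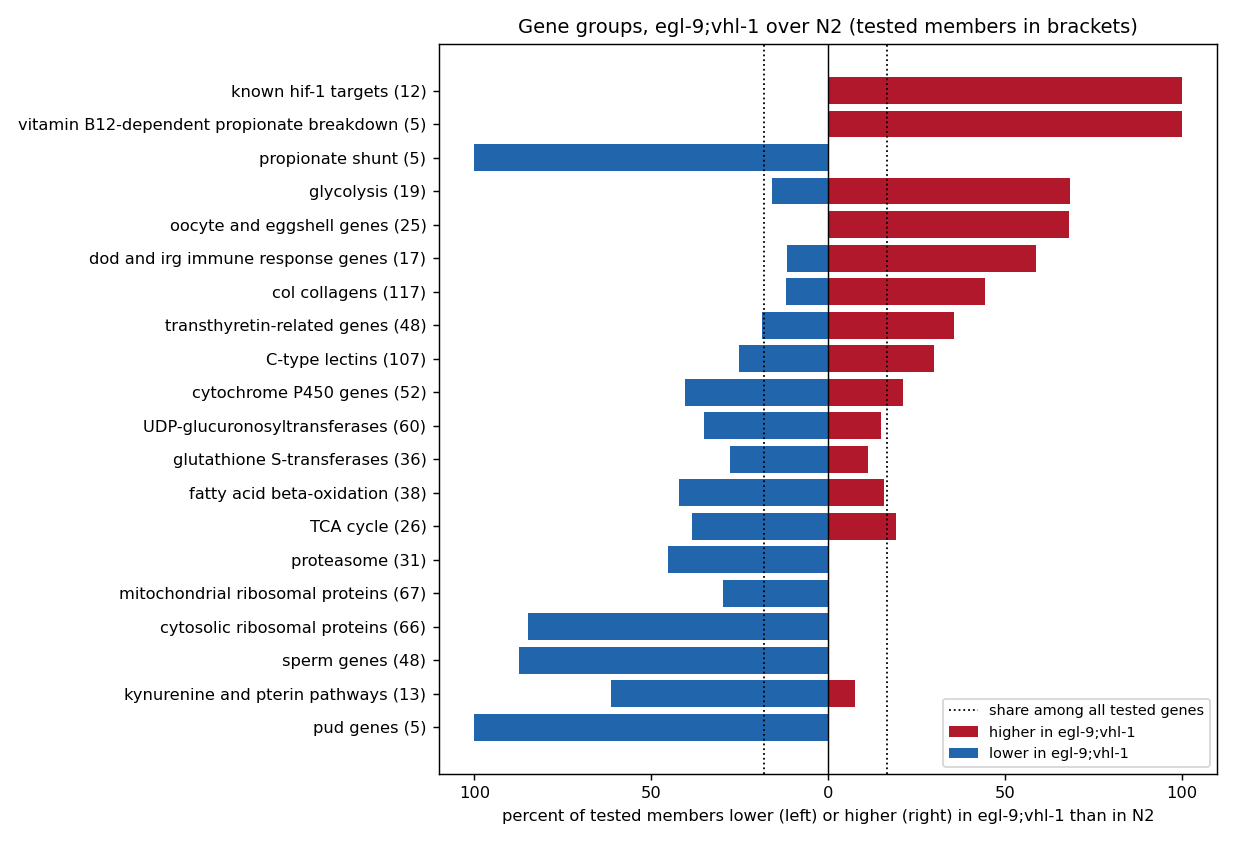
Percent of the tested members of 20 gene lists that were called higher (right) or lower (left) in egl-9;vhl-1 than in N2, with the number of tested members in brackets and dotted lines at the shares among all tested genes. The known HIF-1 targets and the B12-dependent propionate genes are all on the right, the propionate shunt and pud genes are all on the left, and 56 of 66 ribosomal protein genes are on the left.

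In the families that detoxify small molecules, called genes lay in both directions. Among all tested genes, 16.5% rose and 18.1% fell over N2. Of 52 tested cytochrome P450 genes, 11 rose and 21 fell over N2 (median -0.50). cyp-35A3 had 1.24, 2.2 and 2.15 CPM in the double mutant, against 72.4, 55.8 and 52.2 CPM in N2 (-4.97 ± 0.31), and cyp-35A5 fell by 4.47 ± 0.30. For cyp-35A3 the double mutant was also below egl-9, which averaged 8.63 CPM, and vhl-1, which averaged 37.4 CPM (-2.18 and -4.28, both called). Upward were cyp-36A1, cyp-13B1 (3.12 ± 0.29) and cyp-32A1 (2.98 ± 0.25). Of 60 UDP-glucuronosyltransferase genes, 9 rose and 21 fell, with ugt-65 (2.69 ± 0.26) and ugt-9 (-3.74 ± 0.36) as examples, and of 36 glutathione S-transferase genes, 4 rose and 10 fell.

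The transferase gst-19 had the largest rise of the 4 that rose. It averaged 483 ± 29.1 CPM in the double mutant (SD, n = 3), against 8.06, 2.71 and 0.362 CPM in N2, where the N2 libraries differed more than 10-fold among themselves but none came near the double mutant. gst-10 had 32.7, 33.4 and 30.2 CPM in the double mutant, against 220, 167 and 177 CPM in N2 (-2.55 ± 0.20). Of 5 flavin monooxygenase genes, fmo-2, fmo-4 (1.68 ± 0.14) and fmo-3 (1.37 ± 0.16) rose and fmo-1 fell (-0.78 ± 0.25), where the fmo-1 call was lost without N2 replicate 1 (-0.30), without double-mutant replicate 2 (-0.76), without both (-0.26) and in the fit of these 2 genotypes alone. The peroxidase gpx-5, of the oxidative stress list, had 581, 493 and 591 CPM in the double mutant, against 96.1, 105 and 121 CPM in N2 (2.37 ± 0.17).

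Immune effector genes moved in both directions, with many large changes. Of 107 tested C-type lectin genes, 32 rose and 27 fell over N2 (median 0.28), with 17 falls at the minimum count of 50. The shares over all tested genes were 16.5% up and 18.1% down. clec-52 had 443, 509 and 495 CPM in the double mutant, against 16.5, 15.5 and 13.5 CPM in N2 (4.99 ± 0.30), while clec-218 had 19.8, 18.8 and 24.3 CPM in the double mutant, against 159, 131 and 151 CPM in N2 (-2.81 ± 0.21). Both changes far exceeded the spread between libraries. Of 25 lysozyme, saposin-like and thaumatin-like genes, 7 rose and 6 fell, among them lys-7 (2.43 ± 0.19), lys-2 (2.34 ± 0.12) and the thaumatin-like thn-2 (-3.04 ± 0.34). In the list of dod and irg immune response genes, 10 of 17 rose and 2 fell (median 0.68). dod-24 had 995, 1010 and 1020 CPM in the double mutant, against 83.1, 105 and 91.5 CPM in N2 (3.44 ± 0.11), and dod-17 went the other way (-3.21 ± 0.39). Of the epidermal antimicrobial peptide genes only 5 of 20 were tested, of which nlp-30, nlp-31 and cnc-4 rose, 1 of them at the minimum count of 50.

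The N2 libraries disagreed on genes such as hsp-16.41 and hsp-70, heat-inducible chaperones made when proteins misfold. hsp-16.41 had 5.5, 9.72 and 6.02 CPM in the double mutant, against 0.517, 72.8 and 172 CPM in N2, so replicate 1 of N2 lay below the double mutant and the other 2 above it. Of 12 tested genes in the list of heat-inducible chaperones, 3 rose and 4 fell over N2. The symbol hsp-16.48 belongs to 2 of the 12, with equal values, so they are 1 measurement counted as 2 genes. The count of falls was 8 without N2 replicate 1, 0 without N2 replicate 3, 2 without N2 replicate 2, 1 without double-mutant replicate 1, 2 or 3, and 7 without N2 replicate 1 and double-mutant replicate 2 together. The 3 rises, hsp-12.3 (3.59 ± 0.26), sip-1 (0.96 ± 0.09) and hsp-43 (0.49 ± 0.13), were called in every alternative. These 3 genes did not share the split among the N2 libraries. For sip-1 the N2 libraries had 1680, 1670 and 1660 CPM. Their rises therefore do not show that heat-induced genes rose.

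In lipid metabolism, the delta-9 desaturases were lower. These enzymes make monounsaturated fatty acids, and fat-7 had 3.71, 6.71 and 7.31 CPM in the double mutant, against 112 to 187 CPM in the 3 N2 libraries (-4.53 ± 0.27). fat-5 had 0.825, 0.902 and 1.29 CPM in the double mutant, against 4.24, 17.3 and 15 CPM in N2 (-3.55 ± 0.54), also without overlap. fat-6 had 260, 251 and 277 CPM in the double mutant, against 242, 493 and 535 CPM in N2, so N2 replicate 1 lay below the double mutant, and its call (-0.69 ± 0.25) was lost without any 1 double-mutant replicate, without N2 replicate 2 or 3, and in the fit of these 2 genotypes alone. The delta-6 desaturase fat-3 rose by 0.67 ± 0.10, and fat-1, fat-2 and fat-4 were not called. Of 38 genes of fatty acid beta-oxidation, 6 rose and 16 fell, with acox-1.2 (-2.51 ± 0.27), acdh-2 (-3.87 ± 0.44) and acdh-11 (0.57 ± 0.08) as examples. This list shares acdh-1 and ech-6 with the propionate shunt.

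Many cuticle collagens were higher than in N2 and lower than in egl-9. Of 117 tested col genes, 52 rose and 14 fell over N2, with a median of 1.32 (1.3 with the 2 genes that had no count in 1 group set at their bound). The rises numbered between 35 and 58 over the alternatives. col-39 had 1040, 984 and 988 CPM in the double mutant, against 17.1, 54.4 and 137 CPM in N2 (3.86 ± 0.65), and col-147 had 2120, 2180 and 1960 CPM in the double mutant, against 92.1, 199 and 441 CPM in N2 (3.10 ± 0.46). The N2 libraries spread several-fold but stayed below all double-mutant libraries. Falls included col-101 (-2.84 ± 0.19), col-143 (-2.11 ± 0.17) and col-8 (-1.76 ± 0.16). Over egl-9, 1 col gene was higher and 45 were lower, where 1.78% of all tested genes were higher and 6.69% lower. The 45 became 14, 24 and 28 without double-mutant replicate 1, 2 and 3, 17 without egl-9 replicate 1 and 26 without egl-9 replicate 3. Over vhl-1, 20 were higher and 19 lower, where 7.17% of all tested genes were higher and 10.0% lower. The 20 became 12 without double-mutant replicate 3, vhl-1 replicate 1 or vhl-1 replicate 3, and the 19 became 12 without double-mutant replicate 1 or vhl-1 replicate 2.

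Of 14 tested genes of collagen modification and secretion, 3 rose over N2, a share near the 16.5% of all tested genes that rose. phy-2 and dpy-18, both prolyl 4-hydroxylase subunits, rose by 2.86 ± 0.21 and 2.21 ± 0.18, and the lysyl hydroxylase let-268 rose by 1.29 ± 0.13, while the other 11 were not called. dpy-18 had 70.2, 71 and 82.2 CPM in the double mutant, against 14.7, 15.8 and 17.9 CPM in N2.

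Molting genes and body-shape collagens showed how far the libraries of 1 genotype could differ. lpr-6 and mlt-10 (3.55 ± 0.60) were high in all 3 double-mutant libraries, and so was the collagen sqt-3, with 163, 248 and 175 CPM in the double mutant, against 9.51, 7.41 and 11.3 CPM in N2 (4.37 ± 0.96). lpr-4 and sqt-1 were high in double-mutant replicate 2 alone. lpr-4 had 0, 32.1 and 0 CPM in the double mutant, against 0, 0.235 and 0.121 CPM in N2. sqt-1 had 1.24, 43.7 and 0.537 CPM in the double mutant, against 1.55, 0.588 and 0.965 CPM in N2. The furrow collagen dpy-8 had 5.77, 30.9 and 3.55 CPM in the double mutant, against 0.724, 1.53 and 2.53 CPM in N2, so it was highest in replicate 2 while all 3 double-mutant libraries lay above N2. The mean level of the 29 molting genes, as log2(CPM + 0.2) minus the N2 mean, was 0.43, 1.58 and 0.40 in the double-mutant libraries, and -0.01, -0.06 and 0.07 in the N2 libraries.

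Of these 29 molting genes, 7 rose over N2 and none fell, and the count was 3 without double-mutant replicate 2, 3 without N2 replicate 2 and 3 without double-mutant replicate 2 and N2 replicate 1 together. lpr-4 was called over N2 with all libraries (adjusted p = 0.0126 in edgeR's quasi-likelihood test, on 320 counts against 3), and without double-mutant replicate 2 its log2 fold change was -3.19 (adjusted p = 0.579). Of 58 genes of the pharyngeal cuticle (abu and pqn), 14 rose and 2 fell, and the rises numbered 8 without double-mutant replicate 3, 8 without N2 replicate 1 and 6 without N2 replicate 2. The egl-9 libraries and vhl-1 replicate 2 also carried high body-shape collagen RNA, with mean levels over N2 of 6.49, 5.12 and 4.11 in egl-9 and -0.01, 4.89 and -0.14 in vhl-1, against 0.37, 3.50 and 0.60 in the double mutant. The part of these library differences in the collagen results was not tested.

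**Figure D4:**
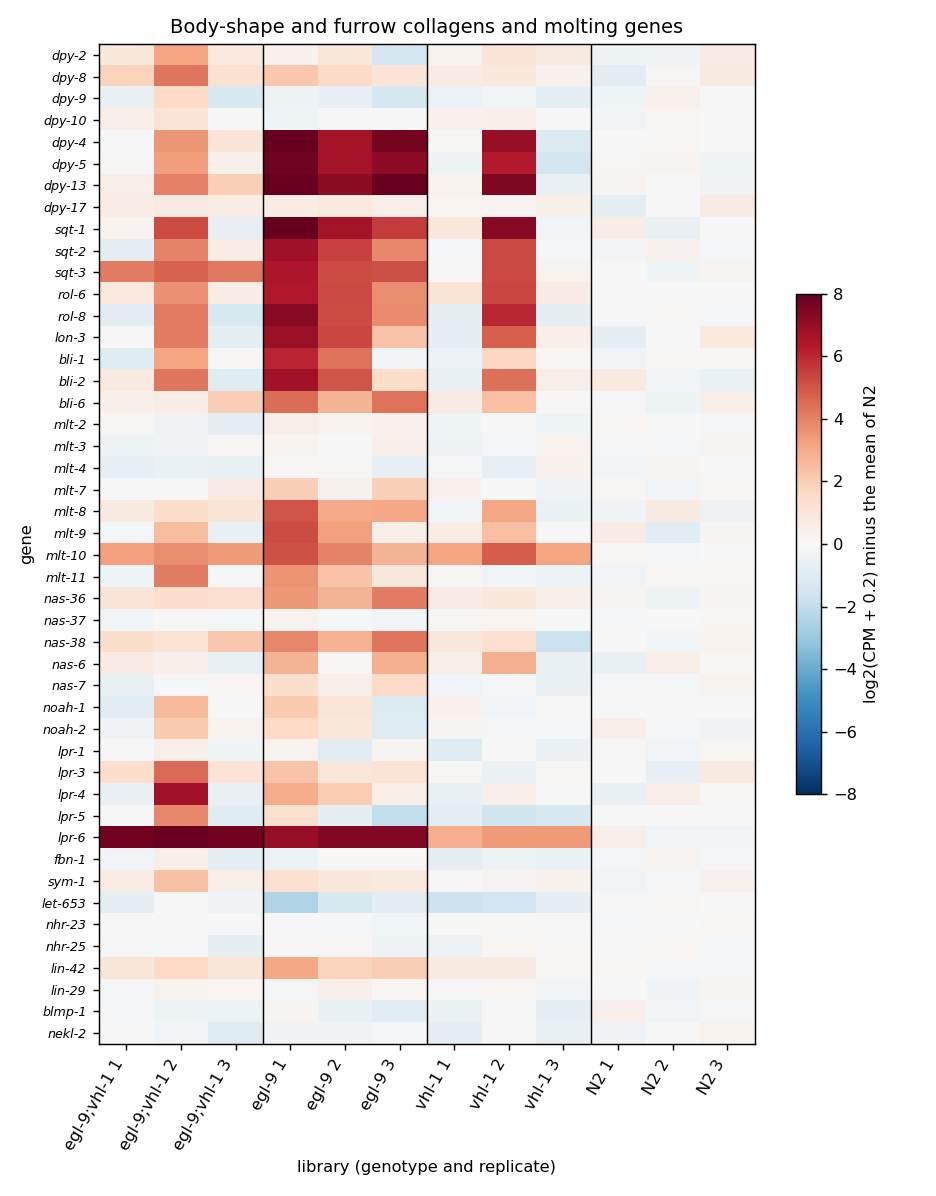
Level of each tested furrow collagen, body-shape collagen and molting gene in each library, as log2(CPM + 0.2) minus the mean of the N2 libraries, with egl-9;vhl-1 on the left, then egl-9, vhl-1 and N2. Values beyond the ends of the colour scale share its end colours. Replicate 2 of the double mutant and of vhl-1 are darker than their fellows for many collagens, and lpr-6 is high in all double-mutant libraries.

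Most listed sperm genes fell and most listed oocyte genes rose. Of 48 tested sperm genes, most of them major sperm protein genes, 42 fell and none rose over N2, with a median of -1.15, and between 37 and 44 fell in every alternative. msp-56 had 95.1, 115 and 94.7 CPM in the double mutant, against 189, 247 and 281 CPM in N2 (-1.23 ± 0.18). The sperm phosphatase gene gsp-4 had 48.5, 63.3 and 58.8 CPM in the double mutant, against 101, 131 and 164 CPM in N2 (-1.21 ± 0.21). Every double-mutant library lay below every N2 library for both. The summed level of the list ran from 2910 to 3560 CPM in the double mutant, from 3540 to 5610 CPM in egl-9, from 5300 to 6480 CPM in vhl-1 and from 5030 to 7750 CPM in N2, with N2 replicate 1 the lowest of its group. Single msp genes are nearly identical copies, so their reads may be divided among them by the counting. The largest fall was that of spe-9, a sperm surface protein needed for fertilization (-2.66 ± 0.57). In the list of spe genes, 13 fell and 2 rose over N2, with 8 to 15 falls and 1 to 2 rises over the alternatives.

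Of 25 oocyte and eggshell genes, 17 rose and none fell, with a median of 0.32, and between 12 and 18 rose in every alternative. The chondroitin proteoglycan gene cpg-3 of the eggshell had 1930, 1950 and 1970 CPM in the double mutant, against 1020, 1010 and 877 CPM in N2 (1.01 ± 0.09). The eggshell chitin synthase chs-1 had 1240, 1330 and 1200 CPM in the double mutant, against 806, 730 and 818 CPM in N2 (0.68 ± 0.11). Again the groups did not overlap, and the yolk receptor rme-2 rose by 0.48 ± 0.09. Of the yolk proteins, vit-1 (-1.21 ± 0.22), vit-3 (-0.93 ± 0.22) and vit-4 (-0.82 ± 0.20) fell, while vit-2 (0.00 ± 0.13), vit-5 (-0.07 ± 0.17) and vit-6 (0.04 ± 0.12) were not called. Of 20 genes of the germline nucleus and P granules, 6 rose and 1 fell, the translational repressor gld-1 (-0.27 ± 0.07).

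**Figure D5:**
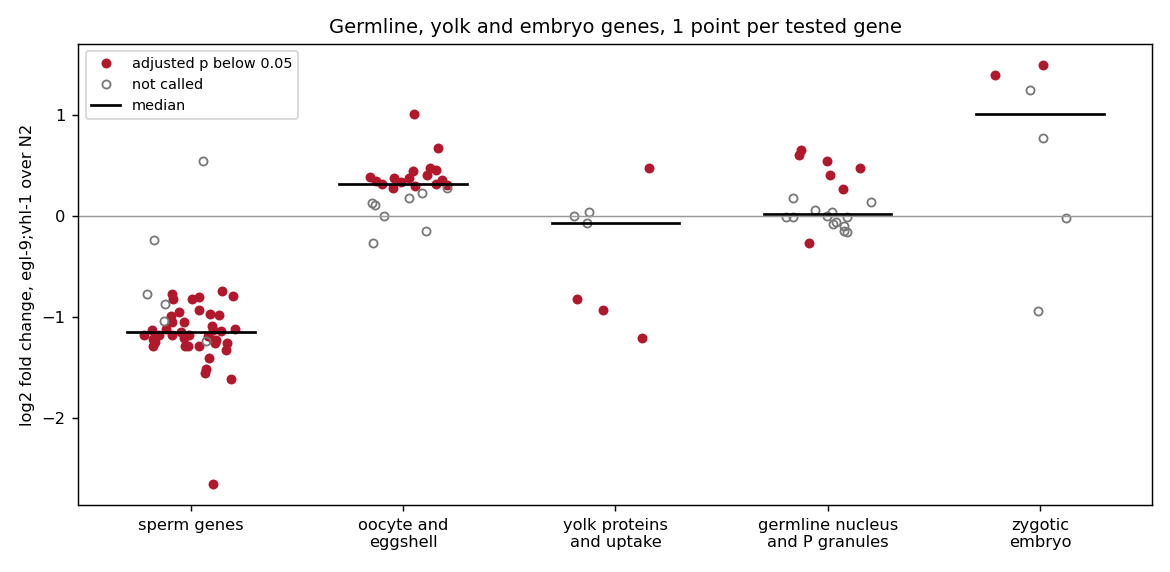
Log2 fold change of egl-9;vhl-1 over N2 for each tested sperm gene, oocyte and eggshell gene, yolk gene, germline gene and zygotic embryo gene, with filled points for genes at an adjusted p below 0.05, open points for the rest and a bar at the median. The sperm genes lie around their median of -1.15, and the oocyte and eggshell genes around 0.32.

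Marker lists of other tissues changed less uniformly. For comparison, 16.5% of all tested genes rose and 18.1% fell over N2. Of 18 neuronal genes, 1 rose and 1 fell over N2, and the summed level was 293 to 311 CPM in the double mutant and 304 to 328 CPM in N2. Of 20 genes of body wall and pharyngeal muscle, 1 rose and 6 fell, with summed levels of 30600 to 34200 CPM in the double mutant and 30600 to 34100 CPM in N2. Of 18 intestinal genes, 5 rose and 6 fell, with the cathepsin B-like protease cpr-1 (2.14 ± 0.16) and the acid phosphatase pho-1 (-1.01 ± 0.15) at the ends. Only 2 of 10 male-enriched somatic genes passed the filter, and neither was called.

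Over egl-9, the double mutant differed at 1105 genes, of which 232 (1.78%) were higher and 873 (6.69%) lower. A change of at least 2-fold was seen at 4.57% of tested genes, 0.238% higher and 4.33% lower, and libraries did not overlap at 24%. The count of 1105 moved more with single libraries than those over N2 and vhl-1. It was 248 without egl-9 replicate 1, 1820 without egl-9 replicate 2, 469 without egl-9 replicate 3, 301 without double-mutant replicate 1 and 420 without double-mutant replicate 3. Among the largest differences were collagens and related genes that were low in the double mutant and in N2 but higher on average in egl-9. col-63 had 1.1, 0.301 and 0.43 CPM in the double mutant, with means of 87 CPM in egl-9, 40.1 CPM in vhl-1 and 0.371 CPM in N2 (-7.22 ± 1.49 over egl-9). rol-1 (-7.48 ± 1.69) and the hedgehog-related grl-5 (-8.22 ± 1.77) did the same over egl-9. The call of rol-1 was lost without double-mutant replicate 1 or 3, and that of grl-5 without double-mutant replicate 1 or egl-9 replicate 1. nkat-3 was lower than in egl-9 by a ratio of 593 with a 95% counting interval of 106 to 23500.

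A few genes were higher in the double mutant than in either parent and in N2. dyf-3, a ciliary gene, had 46.1, 41 and 32.1 CPM in the double mutant, against means of 12.4 CPM in egl-9 and 11 CPM in vhl-1 and values of 2.38, 2.35 and 4.22 CPM in N2. Its differences were 1.68 ± 0.24 over egl-9, 1.85 ± 0.24 over vhl-1 and 3.74 ± 0.28 over N2, and the double mutant did not overlap N2. srlf-34 did likewise, with means of 55.2 CPM in the double mutant, 17.4 CPM in egl-9, 5.57 CPM in vhl-1 and 0.591 CPM in N2, but its call over egl-9 was lost without egl-9 replicate 1. The microtubule regulator cls-3 (1.62 ± 0.23 over egl-9, 1.16 ± 0.23 over vhl-1, 1.29 ± 0.23 over N2) and clec-60 belong here too, the last without a call over egl-9 when double-mutant replicate 1, double-mutant replicate 3 or egl-9 replicate 1 was left out. So do, with smaller sizes, gpi-1 and cpg-3, whose calls over egl-9 (0.29 ± 0.08 and 0.35 ± 0.08) were lost without any 1 double-mutant replicate, without egl-9 replicate 1 or 3, and in the fit of these 2 genotypes alone.

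Others were lower in the double mutant than in either parent and in N2. The aspartyl protease asp-14 had 105, 111 and 116 CPM in the double mutant, against means of 228 CPM in egl-9 and 536 CPM in vhl-1 and values of 330, 380 and 453 CPM in N2 (-1.04 ± 0.13 over egl-9, -2.27 ± 0.13 over vhl-1 and -1.81 ± 0.13 over N2). The glucuronosyltransferase ugt-30 averaged 4.38 CPM in the double mutant, 15.2 CPM in egl-9, 25.3 CPM in vhl-1 and 22.5 CPM in N2. The carnitine palmitoyltransferase homologue cpt-4 averaged 0.486 CPM in the double mutant, 5.39 CPM in egl-9, 6.51 CPM in vhl-1 and 4.09 CPM in N2. All 3 genes were called in each of these comparisons, with cyp-35A3, cyp-35A5 and gst-10 among further examples. An interaction between the 2 mutations was not tested here.

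Over vhl-1, the double mutant differed at 2239 genes, 935 higher (7.17%) and 1304 lower (10.0%). Changes of at least 2-fold made up 2.87% of tested genes upward and 5.6% downward, and libraries did not overlap at 34.7%. After ftn-1, the named genes with the largest rises were far-3, with 1180, 966 and 1010 CPM in the double mutant, against a mean of 5.62 CPM in vhl-1 (7.55 ± 0.33), and the fungus-induced gene fip-6 (5.68 ± 0.35). In N2, far-3 averaged 10.8 CPM and fip-6 0.416 CPM. The deepest differences the other way were irld-35, with 3 counts in the double mutant and 1301 in vhl-1 (a ratio of 431 with a 95% counting interval of 147 to 2090), and smf-3. With 12 counts in N2 and 10 in egl-9, irld-35 was high in vhl-1 only, among these genotypes. The symbol irld-35 is shared by 2 gene identifiers, and the values are those of 1 of them. asp-8 had 2.61, 2.3 and 1.5 CPM in the double mutant, against a mean of 46.7 CPM in vhl-1 (-4.45 ± 0.20) and 22.5, 23.7 and 26.8 CPM in N2 (-3.51 ± 0.20). The methyltransferase comt-4 averaged 10.2 CPM in the double mutant, 4.92 CPM in egl-9, 175 CPM in vhl-1 and 0.37 CPM in N2, so that it was higher than N2 by 4.69 ± 0.55 and lower than vhl-1 by 4.11 on the log2 scale.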

How the data were processed

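Per the submitters' processing notes, reads were handled with bcl2fastq 1.8.4 and kallisto. The sources used here do not give the kallisto version, genome build or transcript set. The deposited files hold kallisto's estimated counts per transcript, which the authors did not normalize, and TPM, which the authors' tool scaled to transcript length and depth. SmartSeq2 does not mark strand, so overlapping and antisense genes cannot be told apart.

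The 32905 transcripts were matched by name to Ensembl 115 genes (WBcel235), 6039 by transcript name and 26559 by sequence name. The 307 unmatched, 0.102 to 0.127% of a library's counts, were kept under their own names. Estimated counts were summed per gene and rounded, giving 22037 genes. A set of 97 symbols is shared by 205 gene identifiers.

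edgeR 4.0.16 (R 4.3.3) was run on all 21 libraries with genotype means and TMM factors. filterByExpr (minimum count 10) left 13043 genes, with 14 residual degrees of freedom and a biological coefficient of variation of 0.15. The SE is the size of the log2 fold change divided by the square root of F. Data were simulated for egl-9;vhl-1 over N2 on 13043 genes, with 100 genes changed at each fold size. Of these, 98% of 4-fold and 79% of 2-fold changes were recovered, with 9 false calls. Far more genes, 4511, were called in the real comparison, so these rates need not hold for its calls. Fold bounds use a floor of 3 counts over the group, and 95% intervals cover counting error only. Replicates were checked for duplication: chi-square per degree of freedom was 3.52 to 7.33 between double-mutant libraries and 8.23 to 14.1 between N2 libraries, so no pair agreed within sampling noise.

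Alternatives were RLE factors, DESeq2 1.42.0, other count filters (none, or a minimum count of 50), fits on the 2 genotypes compared, a replicate term, and each library left out. An alternative without double-mutant replicate 2 and N2 replicate 1 was chosen after seeing the data. The genotypes and the 61 gene lists were chosen with earlier results of these data known, and 4 lists were assembled after seeing values. Named genes are the mutated genes, the 10 raised and 10 lowered named genes with the largest changes among non-overlapping genes with at least 10 CPM, the largest in TPM, the list members with the smallest p, the 6 most different each way from each single mutant, and genes called against N2 and both single mutants. The other 3 genotypes entered only the shared fit.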

Additional observations from a re-analysis of the deposited data

How the results depend on the processing

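The count of genes called over N2 stayed within 1.5 times of 4511 in all alternatives, from 3628 without N2 replicate 3 to 4491 with RLE factors. DESeq2 called 4368, and 3732 were called without double-mutant replicate 2 and N2 replicate 1. Over vhl-1 the range was 1545 to 2256. Over egl-9, 1105 genes were called, 580 when only those 2 genotypes were fitted, and between 248 and 1820 when 1 library was left out. The cause was not tested. Of the named results, 239 of 282 over N2, 57 of 102 over egl-9 and 86 of 99 over vhl-1 kept direction and call in every alternative run. lpr-4 over N2 ranged from -3.19 (without double-mutant replicate 2) to 7.29 when 1 library was left out, and was -3.77 without that library and N2 replicate 1.

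Whether replicate numbers pair the samples could not be settled with 3 libraries per genotype. Deviations of same-numbered double-mutant and N2 libraries correlated at 0.098, 0.0451 and 0.124. Each double-mutant library correlated best with its own number against N2, but this did not hold for each library in the other comparisons. With a replicate block, 4424 genes were called over N2, 1084 over egl-9 and 2145 over vhl-1, and 2 heat-inducible chaperones, not 4, fell over N2. The counts of col genes over egl-9 and vhl-1 with libraries left out were added after seeing the data.

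Depth limits genes with few counts, and transcripts below 400 bases were mostly unread, since 10.0% of those of 300 to 400 bases had a count.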

Other observations

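Of 13 genes of the kynurenine and pterin pathways, 1 rose and 8 fell over N2. Kynureninase kynu-1 had 23.4, 20.7 and 26 CPM in the double mutant, against 71.3, 73.9 and 77.2 CPM in N2 (-1.67 ± 0.11), and tryptophan dioxygenase tdo-2 fell by 1.35 ± 0.16. The GTP cyclohydrolase cat-4 averaged 9.67 CPM in the double mutant, 10.7 CPM in egl-9, 93.8 CPM in vhl-1 and 44.4 CPM in N2. Phenylalanine hydroxylase pah-1 rose by 0.96 ± 0.11. Of 48 transthyretin-related genes, 17 rose and 9 fell over N2, with ttr-23 (3.49 ± 0.35) as the largest rise, and the falls numbered 5 with the stricter count filter and 5 without N2 replicate 2.

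Of 20 tested lysosomal proteases, 7 rose and 10 fell over N2. The aspartyl protease asp-12 had 141, 189 and 156 CPM in the double mutant, against 7.96, 10.0 and 4.46 CPM in N2 (4.43 ± 0.34), and cpl-1 fell by 0.83 ± 0.10. Of 24 ciliary genes, 4 rose and 1 fell, where 16.5% of all tested genes rose and 18.1% fell, so the rises were near the share of all genes. Among them che-12, a gene of sensory cilia, had 35.1, 36.6 and 37.6 CPM in the double mutant, against 1.76, 1.53 and 0.724 CPM in N2 (4.73 ± 0.24). Its mean was 45.3 CPM in egl-9 and 1.98 CPM in vhl-1.

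Genes that changed at least 2-fold over N2 were unevenly spread over the chromosomes. On chromosome V 214 of 2465 tested genes rose (8.68%) and 249 fell (10.1%). On the X chromosome 145 of 1741 tested genes rose (8.33%) and 66 fell (3.79%), while on chromosome IV 136 of 2278 rose (5.97%) and 285 fell (12.5%), and on chromosome I 55 of 2181 rose (2.52%) and 203 fell (9.31%). This spread was not tested.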
